A study of Homo sapiens with 4 samples.

Results

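NEDD9 and the adaptor genes that work beside its protein at focal adhesions were examined in FaDu, a human cell line established from a hypopharyngeal squamous carcinoma. The set was given by name and holds 10 genes among the 60649 gene rows of the count table: NEDD9 and BCAR1 of the CAS scaffold family, the kinases PTK2, PTK2B and SRC, the adaptors PXN, CRK and CRKL, and the actin linkers VCL and TLN1. All 10 were found, and all 10 passed the filter on low counts. The set was chosen by gene name, selected on measured values in that its names were proposed with the difference between these groups in view, chiefly the higher counts of NEDD9. Differences of the 10 genes are therefore given as descriptions, with the values of the fit across all genes, and stand for no independent test.

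The cells overexpressed TINCR-HA-FLAG, that is TINCR joined to HA and FLAG epitope tags, or carried an empty vector, with 2 libraries in each group. Both groups were the same cell line, grown in MEM alpha medium with fetal bovine serum, and their RNA was sequenced. The series calls the replicates technical, so a p-value speaks only of the spread among these libraries. How the construct was introduced, and whether the cells were pools or clones, is not given in the sources used here. Only RNA was measured, so protein levels and phosphorylation were not analysed here.

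Focal adhesions are the sites where integrins tie the extracellular matrix to the actin cytoskeleton. Talin and vinculin carry the mechanical link, while focal adhesion kinase and SRC phosphorylate tyrosines of paxillin and of the CAS scaffolds. The phosphorylated tyrosines of CAS proteins are bound by CRK and CRKL, which recruit exchange factors of small GTPases and so connect adhesion with cell movement. NEDD9, also named HEF1 or CAS-L, is a CAS scaffold best studied in tumour cells for its part in migration and mitosis.

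NEDD9 lies on chromosome 6 of GRCh38 (11183298 to 11382348, minus strand, ENSG00000111859.17) and has distal and proximal transcript starts 149680 bases apart. RefSeq (GRCh38.p14) gives 3 start windows for it, each from 250 bases before a start to 50 after it. The distal pair overlap, with starts 38 bases apart, so 1 of them is shown with the proximal one. They are shown because the gene counts add reads from all these starts and cannot say which start the extra reads came from. Capitals mark matches to the motifs searched on both strands.
NEDD9 proximal start, chr6:11232619-11232918, minus strand: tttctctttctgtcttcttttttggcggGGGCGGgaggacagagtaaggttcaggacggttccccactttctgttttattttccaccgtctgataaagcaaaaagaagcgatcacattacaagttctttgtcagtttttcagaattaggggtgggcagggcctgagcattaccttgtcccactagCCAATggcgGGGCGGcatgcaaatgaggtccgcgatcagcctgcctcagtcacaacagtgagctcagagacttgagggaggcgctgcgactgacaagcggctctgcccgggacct
NEDD9 distal start, chr6:11382299-11382598, minus strand: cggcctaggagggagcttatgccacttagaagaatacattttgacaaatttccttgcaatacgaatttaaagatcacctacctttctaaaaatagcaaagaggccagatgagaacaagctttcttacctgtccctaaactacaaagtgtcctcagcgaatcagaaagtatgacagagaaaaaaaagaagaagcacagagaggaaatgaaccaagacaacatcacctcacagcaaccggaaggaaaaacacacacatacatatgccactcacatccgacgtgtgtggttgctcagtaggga

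The motifs were TGANTCA, the AP-1 site, GGAATG, the TEAD site, GGGCGG, the GC box, CCAAT, the CCAAT box, and TATAAA, the TATA box. In the proximal window a GC box began at position -222, a CCAAT box at -65 and a second GC box at -56, counted from the transcript start, and no matches overlapped. The distal window held no match to these letters. Among 35116 RefSeq windows of this length, 45% held a GC box, 34.6% a CCAAT box, 14% a TEAD site, 11.5% a TATA box and 7.71% an AP-1 site. Of the bases, 52.7% were G or C in the proximal window and 42% in the distal one, against a median of 58.7% over all windows. A match is a run of letters and does not show that a factor binds there.

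Total counts were 18151424 and 22331602 in the TINCR-HA-FLAG libraries and 17069533 and 17315648 in the empty vector libraries. TINCR itself, the check of the labels, had 1921 and 2943 counts with TINCR-HA-FLAG and 68 and 64 counts with the empty vector. The 10 epithelial markers, not all of them specific to squamous cells, exceeded 1 CPM (counts scaled to library size) in every library. Their summed level was 10320 to 12520 CPM with TINCR-HA-FLAG and 11550 to 13420 CPM with the empty vector. KRT5, KRT8 and KRT17 carried that sum. Of single markers, SFN had 142 and 190 CPM with TINCR-HA-FLAG and 253 and 291 CPM with the empty vector (log2 fold change -0.71, adjusted p = 0.0741 in edgeR and 0.00122 in DESeq2), the 1 DESeq2 call of the list. KRT6A had 5.10 and 7.17 CPM with TINCR-HA-FLAG and 12.8 and 10.97 CPM with the empty vector (log2 fold change -0.94, edgeR adjusted p = 0.113). KRT5 had 3314 and 3837 CPM with TINCR-HA-FLAG and 4156 and 4759 CPM with the empty vector (edgeR adjusted p = 0.57). CDH1 went the other way, with 410 and 426 CPM with TINCR-HA-FLAG and 320 and 393 CPM with the empty vector (edgeR adjusted p = 0.603). Both construct libraries were lower for 4 of the 10 and higher for 1, against 17.9% and 21.7% of all genes tested. Fibroblast markers summed to 50.6 to 50.9 CPM with TINCR-HA-FLAG and 41.8 to 45.9 CPM with the empty vector, with 4 of 6 above 1 CPM in every library. In that list COL1A1 had 33.6 and 33.6 CPM with TINCR-HA-FLAG and 26.9 and 24.0 CPM with the empty vector (edgeR adjusted p = 0.259), while COL3A1 had the lower values with TINCR-HA-FLAG and COL1A2 overlapped. Endothelial markers (1 of 5 above 1 CPM in every library) summed to 13.5 to 14.3 CPM with TINCR-HA-FLAG and 10.9 to 11.2 CPM with the empty vector. Leukocyte markers (2 of 5) summed to 9.34 to 13.2 CPM with TINCR-HA-FLAG and 12.3 to 13.3 CPM with the empty vector. No marker was at 0 in all 4 libraries, and the part of these differences in the results was not tested. Mitochondrial genes took 11.4% and 8.66% of counts with TINCR-HA-FLAG and 9.43% and 7.58% with the empty vector.

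NEDD9 was the 1 gene of the set called between the groups, at an edgeR adjusted p under 0.05. Its counts were 1053 and 1314 with TINCR-HA-FLAG and 441 and 389 with the empty vector. Scaled to library size, this was 57.2 and 59.2 CPM with TINCR-HA-FLAG, against 25.7 and 22.9 CPM with the empty vector. Both libraries with the construct lay above both libraries without it, a gap far wider than the differences inside each group. The means were 58.2 ± 1.45 CPM and 24.3 ± 1.98 CPM (SD, n = 2 per group), a 2.39-fold difference. On the log2 scale the change was 1.26 with a standard error of 0.12 and a 95% interval of 0.9998 to 1.52. NEDD9 had an adjusted p of 0.00124 in the edgeR quasi-likelihood fit over 18771 genes, and it ranked 28 of the 85 genes called higher when these were ordered by fold change. As this contrast entered the choice of NEDD9, these values describe it. In RNA from whole cultures, more RNA per cell and more cells that express the gene cannot be told apart.

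**Figure D1:**
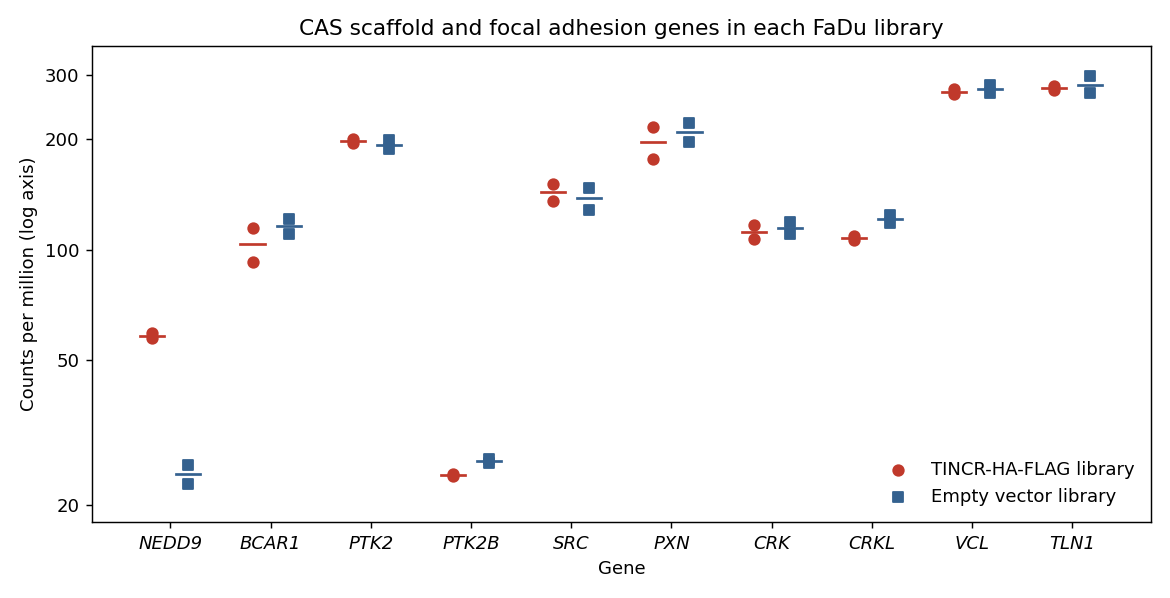
CPM of the 10 genes in each library on a log axis, with circles for TINCR-HA-FLAG, squares for the empty vector and short bars for group means (2 libraries per group). NEDD9 sits at 57.2 and 59.2 CPM with TINCR-HA-FLAG and at 25.7 and 22.9 CPM with the empty vector, while the groups of the other genes overlap or lie close together.

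BCAR1, the ubiquitous CAS scaffold also called p130Cas, did not share this pattern (chromosome 16, 75228187 to 75268053, minus strand). It had 92.6 and 114 CPM with TINCR-HA-FLAG and 111 and 121 CPM with the empty vector. The groups overlapped, and the TINCR-HA-FLAG libraries differed from each other by 23.5%. Its log2 fold change was -0.16 (SE 0.12, 95% interval -0.43 to 0.11). The value leaned on single libraries: with TINCR-HA-FLAG replicate 2 left out it was -0.33 and with replicate 1 of that group left out -0.01, and leaving out an empty vector library gave -0.27 (replicate 1) or -0.09 (replicate 2). BCAR1 was called in none of these.

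The other CAS paralogs were not in the set but complete the family. EFS, the scaffold also called Sin, had 33.2 and 33.4 CPM with TINCR-HA-FLAG and 34.5 and 36.0 CPM with the empty vector, and did not pass the test (log2 fold change -0.08, SE 0.11, edgeR adjusted p = 0.882). CASS4, the fourth paralog, had 5 and 4 counts with TINCR-HA-FLAG and 4 and 2 counts with the empty vector and was too low to test. Levels can be compared between genes only per transcript length, so CPM were also divided by merged exon length in kilobases to give RPKM. On that scale NEDD9 made up 21.3% and 20.1% of the summed RPKM of the 4 paralogs with TINCR-HA-FLAG, against 9.85% and 8.34% with the empty vector. BCAR1 made up 38.9% and 43.7% with TINCR-HA-FLAG and 47.8% and 49.7% with the empty vector, and EFS made up 39.6% and 36.1% with TINCR-HA-FLAG and 42.2% and 41.9% with the empty vector. These shares depend on the length used. Divided by the longest transcript, EFS made up 25.2% and 22.6% with TINCR-HA-FLAG and 27.6% and 27.3% with the empty vector, and NEDD9 made up 27.5% and 25.4% with TINCR-HA-FLAG and 13.0% and 11.01% with the empty vector. The NEDD9 share was the higher one with TINCR-HA-FLAG by either length. The family sum itself was 25.9 and 28.5 RPKM with TINCR-HA-FLAG and 25.2 and 26.6 RPKM with the empty vector, so its ranges overlapped. BCAR1 stayed the more abundant of the pair per length, at 1.83 and 2.18 times the NEDD9 level with TINCR-HA-FLAG and 4.85 and 5.96 times with the empty vector.

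Among the kinases, PTK2 encodes focal adhesion kinase, which binds CAS scaffolds and whose own phosphorylation forms the site that SRC binds. PTK2, on chromosome 8, had 200 and 195 CPM with TINCR-HA-FLAG and 188 and 199 CPM with the empty vector, with a log2 fold change of 0.03 (SE 0.10, 95% interval -0.20 to 0.26). The libraries of the groups were interleaved. PTK2B, its calcium-responsive paralog PYK2, also on chromosome 8, had 24.0 and 24.3 CPM with TINCR-HA-FLAG and 26.9 and 26.2 CPM with the empty vector. The PTK2B libraries with the construct were both below those without it, by a log2 difference of -0.13 (SE 0.12, 95% interval -0.40 to 0.14), and the gene was not called. Per length, PTK2 stood at 4.81 and 4.62 times PTK2B with TINCR-HA-FLAG and at 4.04 and 4.39 times with the empty vector. With the longest transcript as length these were 7.94 and 7.63 times with TINCR-HA-FLAG and 6.67 and 7.24 times with the empty vector.

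SRC encodes the tyrosine kinase that phosphorylates CAS proteins and paxillin together with focal adhesion kinase (chromosome 20, 37344685 to 37406050, plus strand). SRC had 136 and 151 CPM with TINCR-HA-FLAG and 128 and 148 CPM with the empty vector. Replicate 2 was the higher library in both groups, by 11.7% with TINCR-HA-FLAG and 15.0% with the empty vector, and the groups overlapped. The log2 fold change was 0.06 (SE 0.11, 95% interval -0.20 to 0.31).

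PXN encodes paxillin, the adaptor that binds focal adhesion kinase, vinculin and, once phosphorylated, CRK (chromosome 12, 120210439 to 120265771, minus strand). PXN had 177 and 217 CPM with TINCR-HA-FLAG and 197 and 222 CPM with the empty vector, a log2 fold change of -0.09 (SE 0.13, 95% interval -0.37 to 0.19). The TINCR-HA-FLAG libraries were 22.3% apart and the groups overlapped.

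CRK and CRKL encode adaptors of SH2 and SH3 domains that read the phosphorylated tyrosines of NEDD9, BCAR1 and paxillin. CRK (chromosome 17, 1420689 to 1463162, minus strand) had 107 and 117 CPM with TINCR-HA-FLAG and 110 and 119 CPM with the empty vector, a log2 fold change of -0.03 (SE 0.11, 95% interval -0.27 to 0.20), with overlapping groups. CRKL (chromosome 22, 20917426 to 20953749, plus strand) had 106 and 109 CPM with TINCR-HA-FLAG, against 118 and 125 CPM with the empty vector. The CRKL libraries with the construct were both the lower ones, by a log2 difference of -0.17 (SE 0.10, 95% interval -0.39 to 0.05), and the gene was not called. Per length, CRK stood at 1.31 and 1.39 times CRKL with TINCR-HA-FLAG and at 1.21 and 1.24 times with the empty vector.

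VCL encodes vinculin, which binds talin and actin and strengthens the adhesion under load (chromosome 10, 73995193 to 74121363, plus strand). VCL had 266 and 274 CPM with TINCR-HA-FLAG and 267 and 282 CPM with the empty vector, a log2 fold change of -0.02 (SE 0.10, 95% interval -0.26 to 0.21). TLN1 encodes talin, which activates integrins and ties them to actin (chromosome 9, 35696948 to 35732395, minus strand). TLN1 had 272 and 280 CPM with TINCR-HA-FLAG and 267 and 297 CPM with the empty vector, a log2 fold change of -0.03 (SE 0.11, 95% interval -0.27 to 0.21). For both linkers the libraries of the groups overlapped, and the 2 genes kept nearly the same proportion per length in each library, at 0.957 to 1.01 VCL per TLN1.

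**Figure D2:**
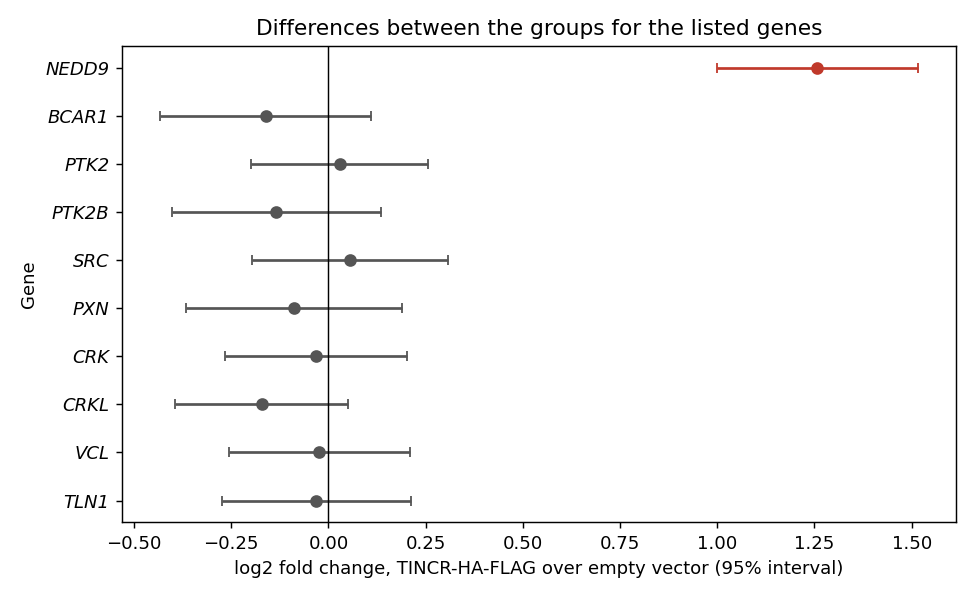
The log2 fold change of each gene, TINCR-HA-FLAG over empty vector, with its 95% interval from the fit across all genes (2 libraries per group). The NEDD9 interval runs from 0.9998 to 1.52, and the other 9 intervals include 0.

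Counted over the set, 1 of 10 genes was called higher and 0 were called lower at an adjusted p under 0.05 in edgeR, beside 0.453% of all tested genes called higher and 0.0959% called lower (0.549% in either direction). Nothing is read from that count, because NEDD9 was known to be called when the set was named. DESeq2 also called NEDD9 and 0 of the other 9, beside 0.943% of all tested genes, and none of the other 9 had an unadjusted edgeR p under 0.05. The log2 fold changes of the other 9 ran from -0.17 to 0.06 with a median of -0.03, where the median over all tested genes was 0.00 (0.0042). The lower bounds of their 95% intervals allowed falls of up to 26.0%, the bound of BCAR1, and the upper bounds rises of up to 23.8%, the bound of SRC. These libraries therefore do not show that the 9 genes were equal between the groups, only that their differences were small beside that of NEDD9. For PTK2, SRC, PXN, CRK, VCL and TLN1 the sign itself turned when single libraries were left out. The libraries of the groups did not overlap for 3 of the 10 genes, against 39.6% of all genes tested. NEDD9 was the 1 gene whose construct libraries were both higher, against 21.7% of all genes, and PTK2B and CRKL were the 2 whose construct libraries were both lower, against 17.9%. Nothing is read from these counts either.

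Ordered by RPKM averaged over all libraries, the set fell into tiers. TLN1, CRK, VCL and PXN were highest, at 27.7, 27.7, 27.3 and 27.2 RPKM, and their library ranges overlapped, so their order is not resolved. SRC at 21.8 RPKM and CRKL at 21.5 RPKM followed, overlapping each other and lying below every library of the upper 4 genes. PTK2 (14.2 RPKM) and BCAR1 (11.95 RPKM) came next, without overlap, since the lowest PTK2 library had 13.7 RPKM and the highest BCAR1 library 13.2 RPKM. NEDD9 and PTK2B were lowest. NEDD9 had 5.52 and 5.72 RPKM with TINCR-HA-FLAG and 2.49 and 2.22 RPKM with the empty vector, while PTK2B had 3.03 and 3.07 RPKM with TINCR-HA-FLAG and 3.39 and 3.30 RPKM with the empty vector. NEDD9 was thus above PTK2B in both libraries with the construct and below it in both without it. The order depended on the length used: divided by the longest transcript, PTK2 came first at 39.5 RPKM, while NEDD9 and PTK2B stayed the lowest pair.

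**Figure D3:**
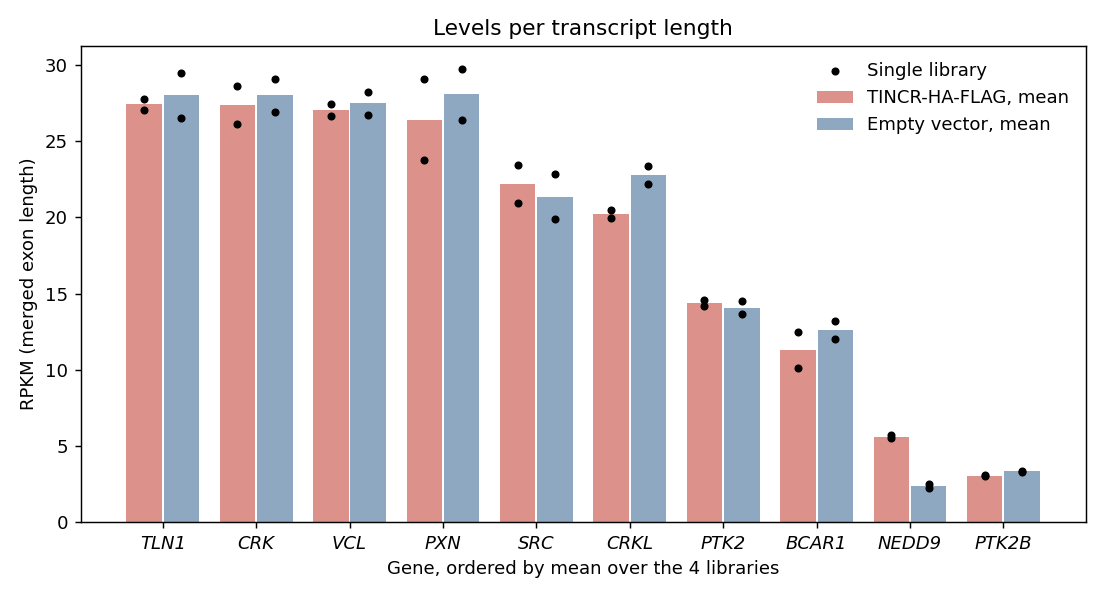
RPKM from merged exon length for the 10 genes, ordered by their mean over the 4 libraries. Bars give group means from 0 and dots give single libraries (2 per group). NEDD9 changes places with PTK2B between the groups, at means of 5.62 and 3.05 RPKM with TINCR-HA-FLAG and 2.35 and 3.34 RPKM with the empty vector.

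The wider pathway was taken from 5 lists that together hold 120 genes, of which 107 could be tested. Of these, edgeR called 1 higher, beside 0.453% of all tested genes, and 1 lower, beside 0.0959%. Their median log2 fold change was -0.03, with 45 positive and 62 negative values. Over all tested genes 9518 values were positive and 9253 negative. At an unadjusted edgeR p under 0.05 there were 16 of the 107, against 10.2% of all genes tested. The groups did not overlap for 58 of the 107, against 39.6% of all genes tested. Both construct libraries were higher for 26 (21.7% of all genes) and lower for 32 (17.9%). The Src-family list had the groups apart for 10 of 12 genes and the integrin subunits for 9 of 21. All genes share the same 4 libraries, and what lies behind these shares was not tested. DESeq2 called 1 higher and 1 lower too, beside 0.943% of all tested genes called in either direction.

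TNS3, which encodes tensin 3, a linker of integrin tails to actin and a partner of focal adhesion kinase and SRC, was the gene that rose. TNS3 had 382 and 374 CPM with TINCR-HA-FLAG, against 244 and 260 CPM with the empty vector. All of its libraries with the construct were above those without, by 1.5-fold, a log2 fold change of 0.58 (SE 0.11, edgeR adjusted p = 0.0478). The adjusted p of TNS3 was 0.0748 with RLE size factors and 0.0908 without the low-count filter, which ended the call at log2 fold changes of 0.57 and 0.59. Without empty vector replicate 1 or 2 the log2 fold change was 0.50 or 0.64 and the adjusted p 0.54 or 0.194. Those last fits hold 1 empty vector library, which is assumed to vary like the TINCR-HA-FLAG pair, and the standard error was 0.22 in both.

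ITGA6, the laminin-binding integrin subunit that pairs with beta 4 in hemidesmosomes and with beta 1 elsewhere, was the gene that fell. ITGA6 had 63.7 and 58.8 CPM with TINCR-HA-FLAG, against 89.1 and 93.8 CPM with the empty vector, a log2 fold change of -0.58 (SE 0.10, edgeR adjusted p = 0.0465). Its groups did not overlap, and the call ended without the low-count filter (log2 fold change -0.58, adjusted p = 0.13) and without empty vector replicate 2 (log2 fold change -0.54, adjusted p = 0.132), again with 1 library left in that arm and a standard error of 0.17. Of the 21 integrin subunits tested, 9 had positive and 12 negative log2 fold changes, with a median of -0.07. Its beta 4 partner ITGB4 had 507 and 585 CPM with TINCR-HA-FLAG and 554 and 602 CPM with the empty vector (edgeR adjusted p = 0.896).

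A further 3 lists held no called gene. CAS relatives and binding partners (13 of 15 tested) had 2 positive and 11 negative values around a median of -0.09 on the log2 scale. Over all tested genes there were 9518 positive and 9253 negative values. Genes measured in the same 4 libraries are not independent, so nothing is read from the signs. In this list CTTN, the actin-binding protein cortactin, had 2674 and 2655 CPM with TINCR-HA-FLAG and 3163 and 2980 CPM with the empty vector (log2 fold change -0.21, SE 0.14, edgeR adjusted p = 0.715). INPPL1, a lipid phosphatase of this list, had 284 and 271 CPM with TINCR-HA-FLAG and 282 and 261 CPM with the empty vector. Src-family kinases and their regulators (12 of 16 tested) had a median of -0.14. The phosphatase gene PTPRF had 590.1 and 674 CPM with TINCR-HA-FLAG and 534 and 641 CPM with the empty vector, and the phosphatase gene PTPN11, which encodes SHP2, had 262 and 286 CPM with TINCR-HA-FLAG and 302 and 315 CPM with the empty vector (edgeR adjusted p = 0.867 and 0.668). Effectors downstream of focal adhesion kinase, paxillin and CRK (28 of 28 tested) had a median of -0.01, with 13 positive and 15 negative values. The small GTPase gene RAC1 had 260 and 293 CPM with TINCR-HA-FLAG and 270 and 303 CPM with the empty vector, and RHOA had 245 and 277 CPM with TINCR-HA-FLAG and 281 and 295 CPM with the empty vector (edgeR adjusted p = 0.932 and 0.747). An unadjusted edgeR p under 0.05 was found for 1 of the CAS relatives and partners, 1 of the Src-family list and 3 of the effectors, and DESeq2 called 0 genes of these 3 lists. The other linkers of integrins to actin (33 of 35 tested) had a median of -0.01, and TNS3 was their 1 call.

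**Figure D4:**
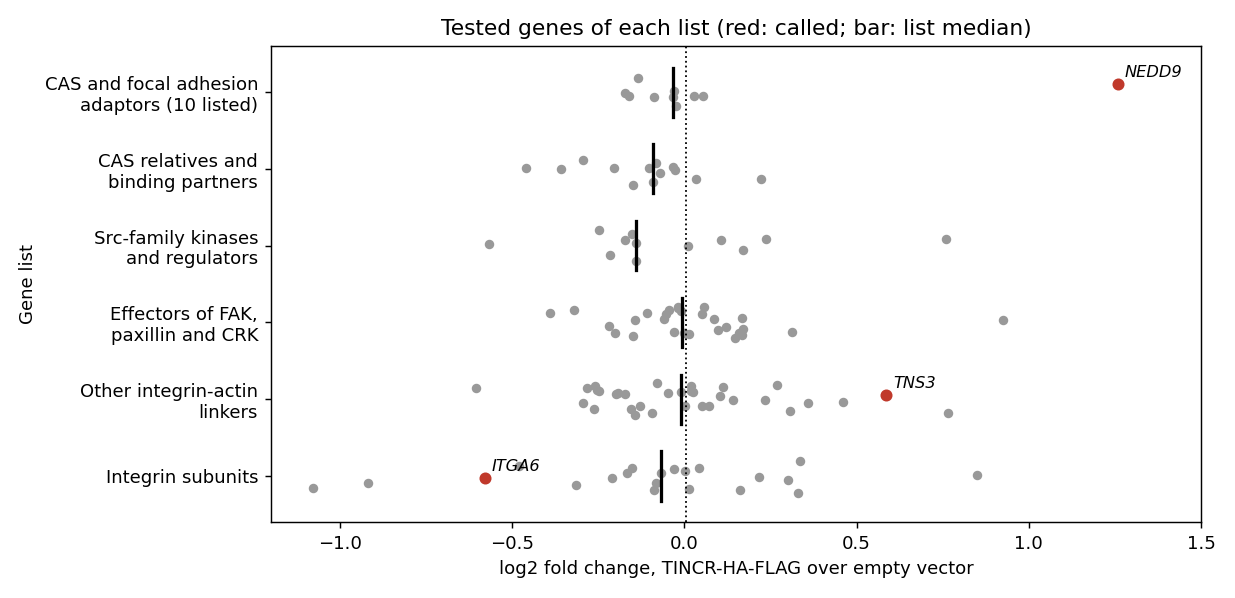
The log2 fold change, TINCR-HA-FLAG over empty vector, of each tested gene in the set and the 5 related lists, spread vertically at random within a list. Red points are called genes, black bars are list medians (-0.14 to -0.01) and the dotted line is the median of all genes tested. NEDD9 at 1.26 lies beyond every other gene plotted, but it was named with this difference in view, so nothing is read from its position.

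The genes beside NEDD9 on chromosome 6 were examined next. Of 55 annotated genes within 1 Mb, 21 passed the filter, and 0 were called in edgeR or in DESeq2, where 0.549% and 0.943% of all tested genes were called. An unadjusted edgeR p under 0.05 was reached by 4 of the 21, beside 10.2% of all tested genes. The groups did not overlap for 8 of the 21, a share close to the 39.6% over all tested genes. Their median log2 fold change was -0.10, with 8 positive values. SMIM13, the nearest tested gene downstream (44.6 kb away), had 20.6 and 18.8 CPM with TINCR-HA-FLAG and 19.5 and 24.1 CPM with the empty vector. ELOVL2, a fatty acid elongase gene 139 kb downstream, had 0.869 and 0.947 CPM with TINCR-HA-FLAG and 2.10 and 1.71 CPM with the empty vector (log2 fold change -1.06, SE 0.42, edgeR adjusted p = 0.414). TMEM170B, the nearest tested gene upstream at 155.9 kb, had 3.26 and 3.20 CPM with TINCR-HA-FLAG and 2.16 and 1.48 CPM with the empty vector (log2 fold change 0.83, SE 0.34, edgeR adjusted p = 0.434). The groups of ELOVL2 and TMEM170B did not overlap, in opposite directions. SYCP2L, ADTRP and TMEM14B, the next nearest, had log2 fold changes of 0.18, 0.15 and 0.00 (-0.0031) and overlapping groups.

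**Figure D5:**
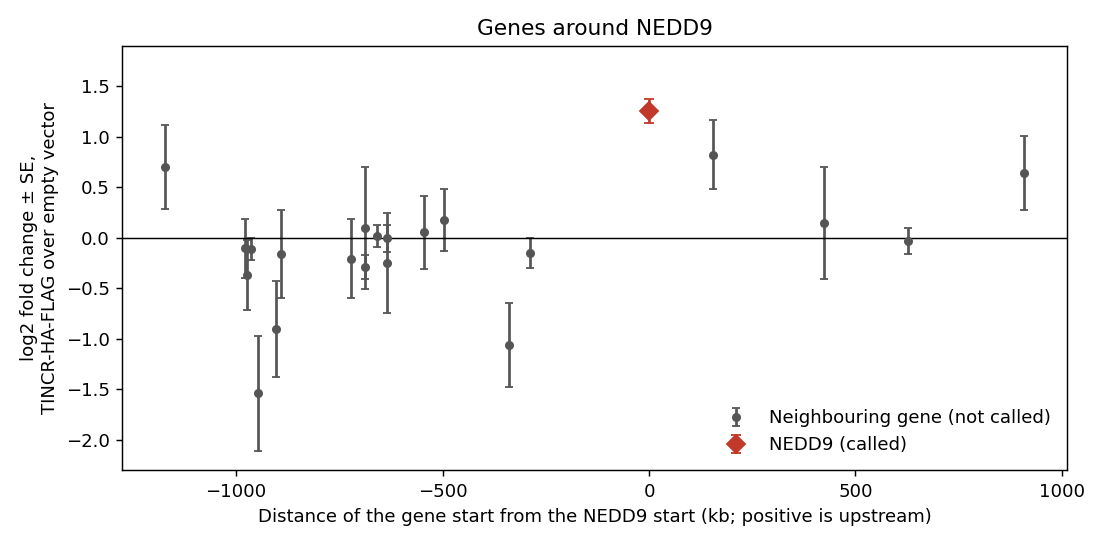
The log2 fold change with its standard error, TINCR-HA-FLAG over empty vector, of NEDD9 (diamond) and of the 21 tested genes within 1 Mb of it, against the distance of their starts from the distal NEDD9 start. NEDD9 stands at 1.26 and its neighbours between -1.54 and 0.83, none of them called.

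Reads could be shared with overlapping genes on the opposite strand if the counting ignored strand. With genes on the same strand they could be shared under any strand setting. The antisense gene that overlaps NEDD9 (ENSG00000247925) had 14 and 5 counts with TINCR-HA-FLAG and 3 and 4 counts with the empty vector, small beside the NEDD9 counts. At the other genes, AP3M1 overlaps the end of VCL by 1109 bases and had 1397 and 1683 counts with TINCR-HA-FLAG and 1233 and 1201 counts with the empty vector. PXN-AS1 overlaps PXN and had 155 and 168 counts with TINCR-HA-FLAG and 161 and 138 counts with the empty vector. CREB3 overlaps the start of TLN1 by 61 bases and had 207 and 342 counts with TINCR-HA-FLAG and 226 and 283 counts with the empty vector. The other overlapping genes had at most 75 counts in any library, and SRC and CRKL overlapped no annotated gene. Among those others, ENSG00000280152 overlaps BCAR1 by 4084 bases on the same strand. It had 74 and 60 counts with TINCR-HA-FLAG and 75 and 56 counts with the empty vector. ENSG00000279786 overlaps PTK2 by 1816 bases on the same strand. It had 47 and 32 counts with TINCR-HA-FLAG and 35 and 12 counts with the empty vector. The strand setting of the counting is unknown here, so reads of pairs on opposite strands cannot be told apart either.

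Among 11730 other genes with a symbol and a mean log2 CPM of at least 2, those most like NEDD9 over the 4 libraries were DIO2, CCL22, FCGRT, MX2 and ESRRG. Likeness was the root mean square difference of log2 CPM after centring each gene, which was 0.07 for DIO2, 0.07 for CCL22, 0.07 for FCGRT, 0.08 for MX2 and 0.10 for ESRRG. FCGRT, which encodes the neonatal Fc receptor, had 26.1 and 26.4 CPM with TINCR-HA-FLAG and 11.8 and 11.6 CPM with the empty vector. DIO2, a deiodinase gene, had 12.1 and 12.5 CPM with TINCR-HA-FLAG and 5.84 and 4.54 CPM with the empty vector. Of the 5, FCGRT and DIO2 were called higher (edgeR adjusted p = 0.00473 and 0.027). CCL22, MX2 and ESRRG were not called (edgeR adjusted p = 0.0788, 0.0541 and 0.118), at 2.57 to 8.74 CPM over the libraries. These genes lie on chromosomes 14, 16, 19, 21 and 1, and none belongs to the adhesion lists. Over only 4 libraries such likeness mostly restates a similar fold change, and it is given as a description.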

How the data were processed

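Per the labels' protocols, RNA was taken with RNeasy and sequenced from NEBNext Ultra libraries, 2 with TINCR-HA-FLAG and 2 with an empty vector. The table deposited by the authors has raw counts of reads per Ensembl gene. The submitters' processing notes list, without roles, the build GRCh38 and the tools STAR 2.7.9a, DESeq2 1.32.0 and bcl2fastq 2.20.0.422. Which counter, strand setting and annotation made the counts is not given in the sources used here. Columns were tied to samples by line, construct and replicate number. The headers used read TINCR, so the HA-FLAG tag comes from the sample titles and series text. A further 12 library columns that fit no sample given were left aside, among them 4 with the same line and construct names under replicate numbers 3 and 4.

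Symbols came from a gene table by Ensembl identifier (60507 of 60649 rows matched) and positions and lengths from GENCODE release 29. Counts were scaled by TMM, filtered with filterByExpr (18771 genes left) and entered in the robust quasi-likelihood test of edgeR 4.0.16 in R 4.3.3, adjusted by Benjamini-Hochberg over all genes at a threshold of 0.05. Intervals are 95% from that fit. CPM and RPKM were computed from the counts with TMM-scaled totals, where 3 counts equal 0.14 to 0.18 CPM, which covers counting error only.

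The 10 genes and the 5 lists were chosen with earlier results of these data known. Named beside the set are TINCR, up to 4 called genes of each list or the 2 most abundant of a list with no call, the 6 nearest tested neighbours of NEDD9, the 5 genes most like it and overlapping genes. Other genes are named for family or partnership, and single markers after their values were seen. Alternatives were DESeq2 1.42.0, RLE factors, library totals, no filter, at least 1 CPM in 2 or more libraries, a fit without TINCR, a replicate block, the legacy dispersion estimate, each library left out and another transcript length, which for the CAS family shares was chosen after seeing the data. The edgeR and DESeq2 fits were also run on simulated counts with known fold changes. Each simulated count was drawn independently, so that run says nothing of noise shared between libraries, and its outcome is not given here. Protein sequences were not analysed here. Between libraries of a group the chi-square per gene was 16.6 with TINCR-HA-FLAG and 12.04 with the empty vector, more than sampling noise gives, so each library was counted. This does not show separate cultures.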

Additional observations from a re-analysis of the deposited data

How the results depend on the processing

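NEDD9 was called higher under all 12 alternatives, with log2 fold changes from 1.18 to 1.30 when single libraries were left out and from 1.24 to 1.28 otherwise. For the other 9 genes of the set, 96 of 108 alternative values moved by less than the spread between replicates. The 12 that moved further came from leaving out a library. That spread came from the same libraries, and apart from rescaling, leaving out 1 library cannot shift a group mean by more. The check could therefore hardly fail, and nothing is read from these counts. Over the whole table, DESeq2 called 123 genes higher and 54 lower, against 85 and 18 in edgeR. With no filter on low counts these were 47 and 6, and no list gene was called (0 higher and 0 lower). With RLE size factors 0 list genes were called higher. Leaving out 1 library at a time gave 69 to 226 genes higher and 45 to 160 lower, with 0 to 1 list genes higher and 0 to 2 lower. With the replicate number as a block, 1317 genes were called higher and 1316 lower, with 1 gene of the set lower (CRKL, adjusted p = 0.0437), 8 list genes higher and 25 lower. That fit leaves 1 residual degree of freedom per gene, and the labels do not say that the numbers pair libraries. The differences between replicates 1 and 2 correlated at 0.37 between the groups, across 18771 genes. In every other alternative the set kept 1 call higher and 0 lower. Divided by the longest transcript, mean levels were 8.37 RPKM for NEDD9, 23.6 for BCAR1, 39.5 for PTK2, 5.37 for PTK2B, 30.4 for SRC, 37.2 for PXN, 29.2 for CRK, 34.1 for VCL and 31.6 for TLN1. Total counts of 17069533 to 22331602 limit what can be said of genes near the floor, such as CASS4. With 2 libraries a group, small differences of the other 9 genes cannot be resolved.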
